A study of Arabidopsis thaliana with 6 samples.

Results

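Pectin methylesterases are wall enzymes that remove methyl groups from pectin. They were followed here across roots of Arabidopsis thaliana labelled as exposed to cadmium or as control. The 38 listed genes were matched by locus to probe sets, the groups of short probes that read 1 transcript on the array. A match was kept where the array annotation named that 1 gene alone. Of the 38 genes, 24 had such a probe set, 1 each, out of 13286 genes named in this way and 22810 probe sets on the array. No named probe set was found for AT1G11580 (PMEPCRA), AT3G10710 (RHS12), AT2G45220 (PME17), AT3G14310 (PME3), AT1G53840 (PME1), AT4G33220 (PME44), AT2G26440 (PME12), AT5G47500 (PME5), AT1G53830 (PME2), AT5G55590 (QRT1), AT3G29090 (PME31), AT1G69940 (PPME1), AT2G21610 (PE11) and AT5G61680, and these 14 are not analysed here.

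Pectin is made in the Golgi in a methylated form and secreted to the wall. Pectin methylesterases then expose its acidic groups, which bind calcium and can also bind other divalent metal ions such as cadmium. Depending on the pattern of removal, the wall stiffens through calcium bridges or becomes open to pectin-cleaving enzymes. Many of the enzymes are made with an inhibitor-like pro region that subtilases, serine proteases of the secretory pathway, cut off before secretion, and separate inhibitor proteins block the mature enzyme in the wall. In roots pectin methylesterification is tied to cell elongation, root hair growth and metal retention in the wall.

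The cadmium group was roots of 4-week-old Col-0 plants given 200 µM cadmium for 6 h, and the control group was roots of such plants without cadmium. All plants grew in hydroponic culture at 28 °C, and each group had 3 Affymetrix ATH1 arrays, numbered as biological replicates 1 to 3 by the sample titles. The labels do not say whether plants were pooled. P-values therefore measure the spread between these arrays.

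Signals are linear MAS5 units as deposited, in which each array is scaled as a whole. Replicates 1 and 3 were scaled to a 2% trimmed mean of 500, but in replicate 2 this mean was 227 on the cadmium and 216 on the control array. The 3' signal of the GAPDH control transcript exceeded its 5' signal by 1.67 and 2.02 (log2) on the cadmium and control arrays of replicate 2, against values of -0.60 to -0.19 on the other 4 arrays. Differences across all probe sets in replicate 2 also ran against those of replicates 1 and 3 (r = -0.68 and -0.63 over 15909 probe sets, which are not independent). Results are therefore given within replicates 1 and 3, over all 6 arrays, and as each pair's own difference. Arrays are called cadmium or control by their labels. Whether labels were exchanged within a pair cannot be settled from them and was not tested, and an exchange would turn the sign of that pair's differences. Because of the scales, signals of replicate 2 are set against each other and not against those of the other arrays. PYK10, a beta-glucosidase of the root, was the 1 named gene of 12 root markers and gave 12364, 12674 and 3450 on cadmium arrays 1, 3 and 2 and 12846, 10871 and 5157 on control arrays 1, 3 and 2. Among 10 shoot photosynthesis markers, 2 were named, RCA and PRK. Their summed signal was 342 to 2103 on the cadmium arrays and 288 to 1735 on the control arrays, and none was at 0.

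A probe set was tested if its mean signal over the 6 arrays reached 73.0, the 30th percentile. Of the 24 measured genes, 15 passed. AT5G64640 passed only through its cadmium arrays, with a mean of 104 there and 69.4 on the control arrays, and it is among the genes counted as above 0 and as alike in 3 pairs. The 9 genes under the filter were AT5G20860, AT4G02320, AT4G02300 (PME39), AT3G60730, AT2G26450, AT4G15980, AT5G49180, AT1G05310 and AT2G36710. Of their 54 signals, which ranged from 3.69 to 140, 40 lay under 62.1, the 30th percentile of all signals, so their order between the groups is not read here. AT4G02320 gave the highest of them, 140 on cadmium array 3, beside 18.6 and 36.0 on cadmium arrays 1 and 2 and at most 39.6 on the control arrays. AT4G02320 lies next to AT4G02330 in the TAIR10.1 gene order, and 2 protein-coding genes lie between AT4G02300 and AT4G02330. Of these 3 neighbouring genes, AT4G02330 was the 1 past the filter.

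**Figure D1:**
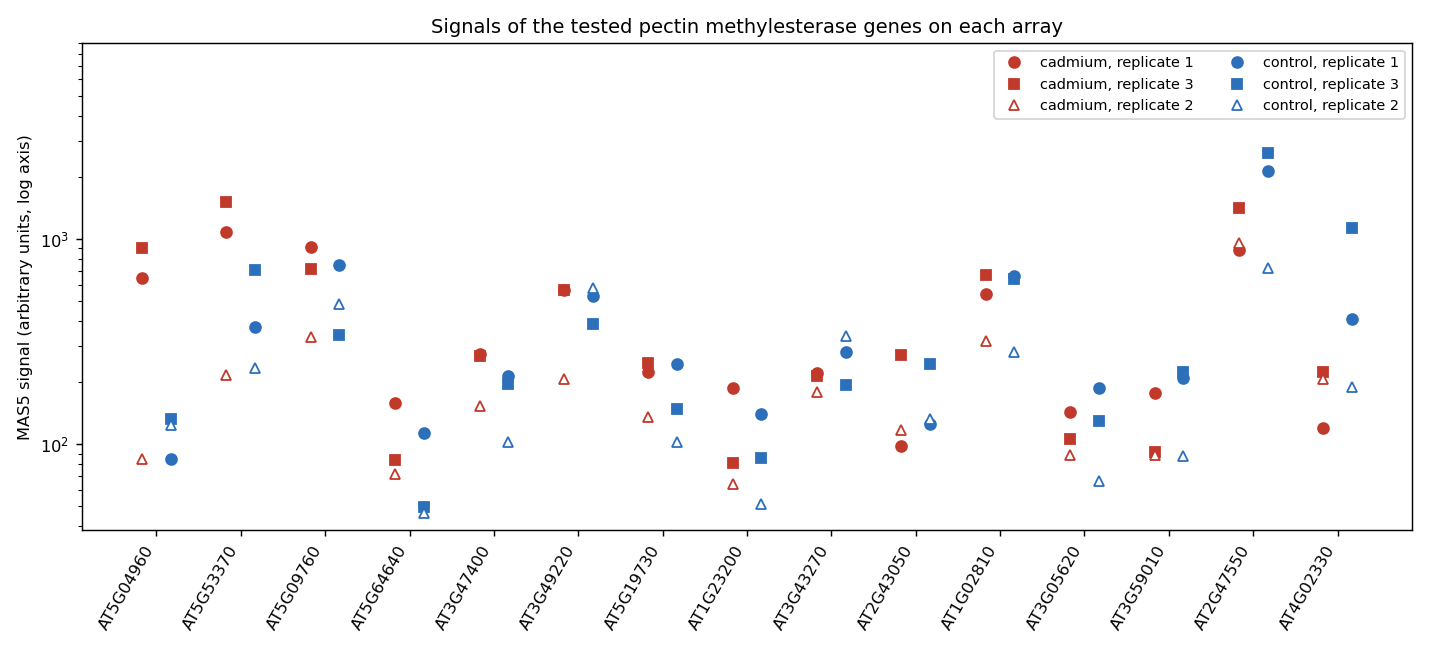
MAS5 signal (log axis) of the 15 tested pectin methylesterase genes on each array, with cadmium arrays in red on the left and control arrays in blue on the right of each gene, and replicate 2 as open triangles. AT5G04960 stands at 649 and 905 on cadmium arrays 1 and 3 against 84.2 and 132 on control arrays 1 and 3, and signals of different genes come from different probes and are not comparable in level.

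Within replicates 1 and 3, the transcript of AT5G04960 was higher on the cadmium arrays, and it was the 1 gene of the 15 past the threshold. AT4G02330 and AT2G47550 had the widest negative differences and AT5G53370 the second widest positive one, and none of these 3 passed in this fit, which does not use the replicate number. Limma's moderated test with Benjamini-Hochberg adjustment over all 15909 probe sets called 1 of 15 genes higher (1.29% of all probe sets) and 0 lower (3.24%), at an adjusted p under 0.05. At an unadjusted p under 0.05 it gave 2 genes higher (15.3% of all probe sets) and 2 lower (9.07%), so the family's shares, 1 of 15 and 4 of 15, lay near those of the whole array (4.53% and 24.4% in either direction). The 15 differences ran from -2.05 to 2.86 with a median of 0.17, and the median of all 15909 probe sets was 0.22. Differences were above 0 for 8 of the 15 genes (67.3% of all probe sets). After quantile normalization 7 were above 0 and the median was -0.02, beside 0.11 for all tested probe sets. After median centring 7 were above 0 and the median was -0.09, beside -0.03 for all tested probe sets. The share of all probe sets above 0 was not counted after these 2 rescalings. The sign of the family's median thus changed with the scaling, while this median lay below that of all tested probe sets under each.

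AT5G04960 had signals of 649 and 905 on cadmium arrays 1 and 3, against 84.2 and 132 on control arrays 1 and 3. Both cadmium arrays lay above both control arrays. Groups did not overlap within replicates 1 and 3, in either direction, for 7 of the 15 genes (57.7% of all probe sets). For AT5G04960 the difference was 7.26-fold (log2 2.86 ± 0.33 SE, n = 2 arrays a group, adjusted p = 0.0211 in limma). In replicate 2 the same transcript gave 84.6 on the cadmium and 124 on the control array, a log2 difference of -0.55 that stood against 2.94 and 2.78 in replicates 1 and 3. A limma contrast of the replicate 2 difference with the mean of the other pairs gave -3.41 ± 0.58 (adjusted p = 0.0355). Replicate 2 has 1 array a group there, its spread is assumed from replicates 1 and 3, and the contrast was set up with the opposition of replicate 2 already known, so its values describe that opposition and give no independent support. It passed for 1 of the 15 genes, lower for AT5G04960 (3.85% of all probe sets), and for 0 genes higher (5.09%). Over all 6 arrays AT5G04960 had a difference of 1.72 ± 0.82 SE (adjusted p = 1 in limma). Without cadmium replicate 1 the difference within replicates 1 and 3 was 3.10 and without cadmium replicate 3 it was 2.62, and neither passed (limma adjusted p = 0.0573 and 0.0815).

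Named root hair markers also had positive differences within replicates 1 and 3. Of 14 listed markers 3 were named and tested, the expansins EXPA7 and EXPA18 and the xyloglucan endotransglucosylase XTH26. All 3 had positive differences (67.3% of all probe sets) and 0 passed the threshold in limma. At an unadjusted p under 0.05 limma gave 2 of the 3 as higher (15.3% of all probe sets). XTH26, 1 of these, passed the filter only through its cadmium arrays, with a mean of 192 there and 20.8 on the control arrays. The summed signal of the 3 markers was 998, 1919 and 390 on cadmium arrays 1, 3 and 2 and 421, 843 and 369 on control arrays 1, 3 and 2, and no marker was at 0. In replicate 2 the log2 difference was -0.36 for EXPA7, 0.14 for EXPA18 and 0.96 for XTH26, beside -0.55 for AT5G04960. XTH26 was at least 3.50-fold higher within replicates 1 and 3 (limma adjusted p = 0.132 with signals under 62.1 set to that value). Fewer or more cells of a type and less or more RNA per cell cannot be told apart in RNA of whole roots, and the part of root hairs in the AT5G04960 result was not tested.

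AT5G53370, listed as PMEPCRF, had signals of 1082 and 1523 on cadmium arrays 1 and 3 and 371 and 704 on control arrays 1 and 3. The groups did not overlap, and the difference was 1.33 ± 0.38 SE on the log2 scale, 2.51-fold (95% interval 0.38 to 2.28, limma adjusted p = 0.120). In replicate 2 it gave 217 on the cadmium and 236 on the control array. That pair differed by -0.12, and the contrast with the other pairs was -1.45 ± 0.66 (limma adjusted p = 0.213). With 1 array left out, the difference within replicates 1 and 3 ran from 0.87 (without control replicate 1) to 1.79 (without control replicate 3).

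AT4G02330, listed as ATPMEPCRB or PME41, is known from work on chilling tolerance and brassinosteroid signalling in Arabidopsis. Its signals were 120 and 224 on cadmium arrays 1 and 3 and 409 and 1128 on control arrays 1 and 3. Cadmium arrays lay below control arrays in both pairs, by -1.76 and -2.33 on the log2 scale. The mean was -2.05 ± 0.57 SE, 4.14-fold lower on the cadmium arrays (95% interval -3.48 to -0.62, limma adjusted p = 0.116). In replicate 2 the signals of 207 on the cadmium and 190 on the control array differed by 0.12. With 1 array left out, the difference within replicates 1 and 3 ran from -2.78 (without control replicate 1) to -1.32 (without control replicate 3).

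AT2G47550 had signals of 881 and 1412 on cadmium arrays 1 and 3 and 2144 and 2629 on control arrays 1 and 3. The groups did not overlap, with a difference of -1.09 ± 0.29 SE (95% interval -1.83 to -0.35, limma adjusted p = 0.111). In replicate 2 it gave 959 on the cadmium and 719 on the control array, a difference of 0.42. AT3G59010, listed as PME61 or PME35 and known from the stiffness of Arabidopsis stems, had 177 and 92.0 on cadmium arrays 1 and 3 and 211 and 225 on control arrays 1 and 3. Its groups did not overlap either, yet the interval of -1.76 to 0.21 around -0.78 spanned 0 (limma adjusted p = 0.287). In replicate 2 it gave 88.7 and 87.2 on the cadmium and control arrays. AT5G09760 had 920 and 718 on cadmium arrays 1 and 3 and 748 and 340 on control arrays 1 and 3, which overlapped, and 333 and 485 on the cadmium and control arrays of replicate 2. Its difference was 0.69 ± 0.42 SE (limma adjusted p = 0.361).

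**Figure D2:**
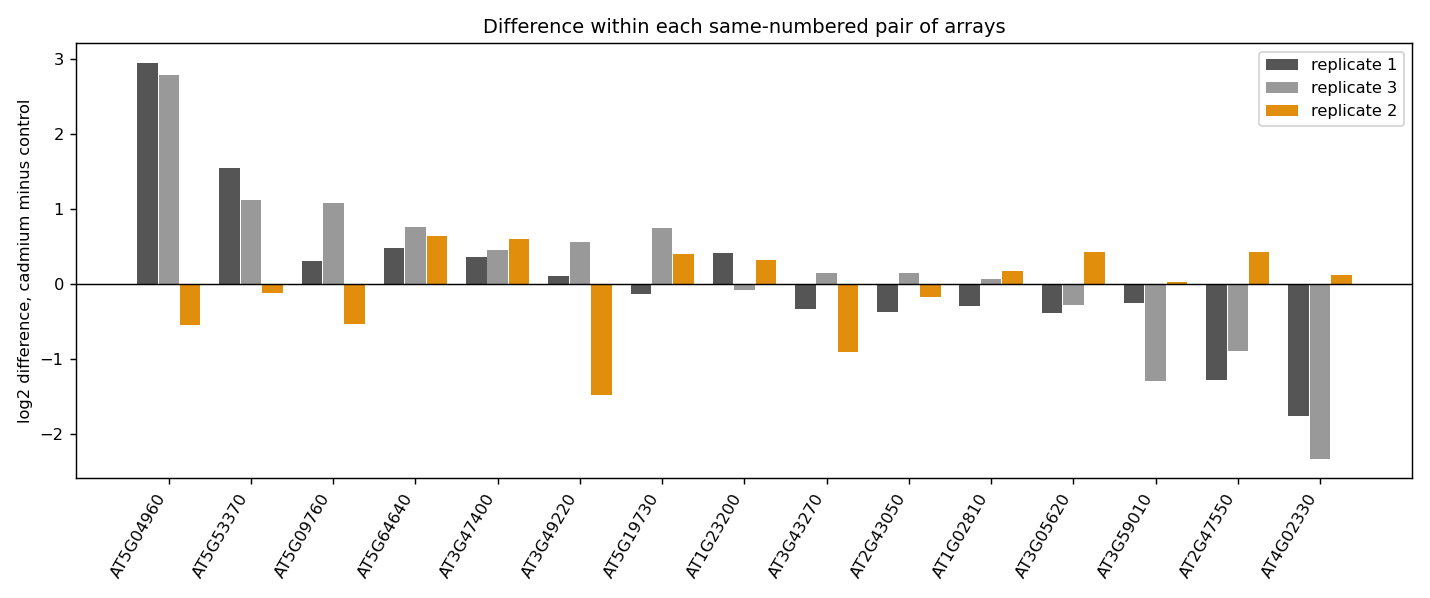
Log2 difference, cadmium minus control, within each same-numbered pair of arrays for the 15 tested genes, ordered by their mean in replicates 1 and 3 (grey bars), with replicate 2 in orange. The bars of AT5G04960 reach 2.94 and 2.78 in replicates 1 and 3 and -0.55 in replicate 2, and those of AT4G02330 reach -1.76, -2.33 and 0.12.

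The remaining 9 tested genes had differences between -0.34 and 0.62 within replicates 1 and 3, and 0 of them had an unadjusted p under 0.05. AT3G49220, known from heat tolerance and guard cells in Arabidopsis, stood apart in replicate 2. Its signals were 566 and 562 on cadmium arrays 1 and 3 and 527 and 384 on control arrays 1 and 3, and 208 on the cadmium and 579 on the control array of replicate 2. The difference of -1.48 in that pair was the widest of the 15 genes, and the contrast with the other pairs was -1.80 ± 0.42 (limma adjusted p = 0.0626). AT3G43270 gave 180 on the cadmium and 337 on the control array of replicate 2. It had 222 and 214 on cadmium arrays 1 and 3 and 280 and 194 on control arrays 1 and 3. Its contrast was -0.81 ± 0.46 (limma adjusted p = 0.305).

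AT3G47400 was higher on the cadmium array in 3 of 3 pairs, by 0.36, 0.45 and 0.59 on the log2 scale in replicates 1, 3 and 2. Its signals were 275, 269 and 154 on cadmium arrays 1, 3 and 2 and 215, 197 and 103 on control arrays 1, 3 and 2. Over all 6 arrays the difference was 0.47 ± 0.66 SE (limma adjusted p = 1), and the deposited signals of the groups overlapped, with replicate 2 lowest in each. After each array was centred on its median, AT3G47400 was the 1 gene of 15 whose 6 arrays did not overlap (3.28% of all probe sets), whereas 0 of 15 were so in the deposited signals (1.08%). AT5G64640 also had positive differences in 3 of 3 pairs (0.48, 0.76 and 0.64), with 158, 83.4 and 71.9 on cadmium arrays 1, 3 and 2 and 113, 49.2 and 46.2 on control arrays 1, 3 and 2, and its interval of -0.87 to 2.12 within replicates 1 and 3 was wide.

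The pairs of AT1G02810, AT1G23200, AT2G43050, AT3G43270 and AT5G19730 in replicates 1 and 3 differed in sign. AT1G02810 had 537 and 671 on cadmium arrays 1 and 3 and 662 and 640 on control arrays 1 and 3, and the interval of its difference, -0.68 to 0.45, was the narrowest of the family. AT2G43050, listed as ATPMEPCRD, had the widest interval (-1.62 to 1.40), with 98.0 and 272 on cadmium arrays 1 and 3 and 126 and 246 on control arrays 1 and 3. For this gene the 2 arrays within each group differed more than the groups did. AT1G23200, known in Arabidopsis from seed mucilage and embryo growth, had 187 and 80.9 on cadmium arrays 1 and 3 and 140 and 85.3 on control arrays 1 and 3. AT3G05620 had 143 and 106 on cadmium arrays 1 and 3 and 187 and 129 on control arrays 1 and 3, a difference of -0.34 ± 0.36 SE. AT5G19730, which is made without the pro region, had 225 and 248 on cadmium arrays 1 and 3 and 247 and 148 on control arrays 1 and 3 (0.30 ± 0.33 SE, limma adjusted p = 0.600). The 95% intervals of the 15 genes reached 0.57 to 1.51 on the log2 scale to each side, with 2 arrays a group. These intervals are not adjusted for the number of probe sets tested, so differences wider than them could also go uncalled. The intervals of AT4G02330, AT5G53370 and AT2G47550 left out 0, yet these genes did not pass the adjusted threshold.

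**Figure D3:**
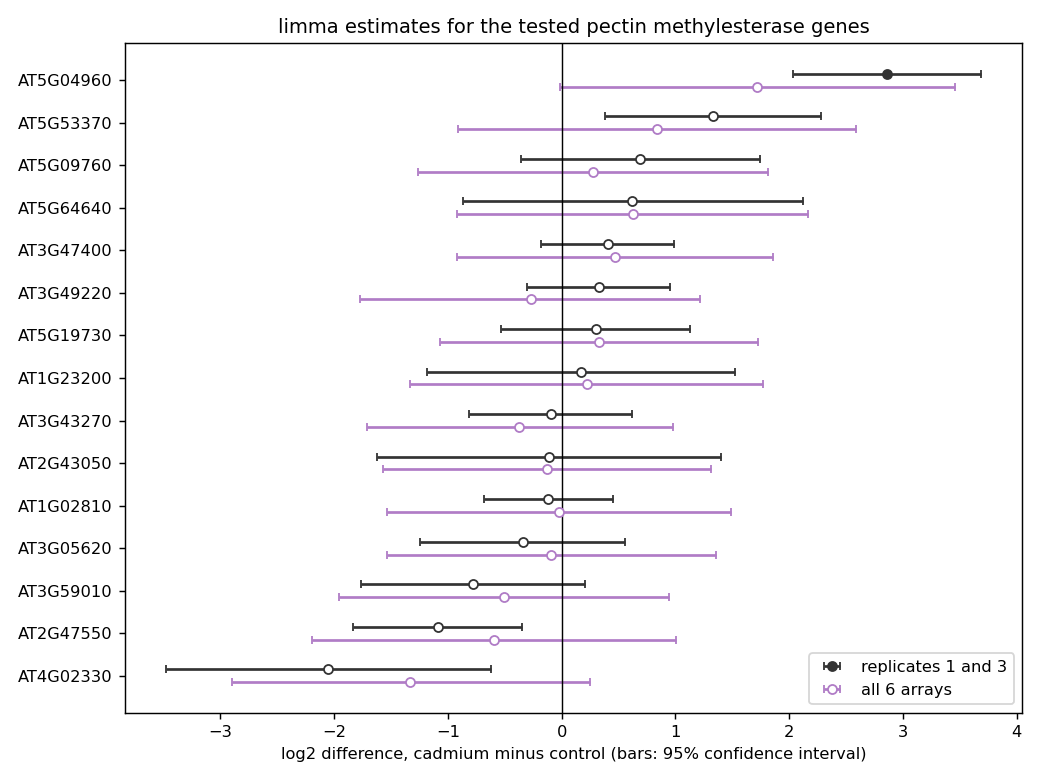
Log2 difference, cadmium minus control, with 95% confidence intervals from limma for the 15 tested genes, within replicates 1 and 3 (black) and over all 6 arrays (purple), with filled points at an adjusted p under 0.05. The 1 filled point is AT5G04960 within replicates 1 and 3 (2.86, interval 2.03 to 3.69), and over all 6 arrays its interval runs from -0.01 to 3.46.

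Over all 6 arrays 0 of the 15 genes passed in limma, and 0 of 15909 probe sets did (0%). At an unadjusted p under 0.05 there were 0 of 15 genes and 84 probe sets (0.528%), and the lowest unadjusted p among the 15 was 0.0518, for AT5G04960. Replicates 1 and 3 shared their sign while replicate 2 was opposed in 8 of the 15 genes (59.7% of all probe sets). In 2 genes the 3 pairs were alike (17.3%) and in 5 replicates 1 and 3 disagreed (22.9%). Across the 15 genes r was 0.89 between the differences of replicates 1 and 3, -0.22 between replicates 1 and 2 and -0.29 between replicates 3 and 2. These correlations run across genes read on the same 6 arrays, and are given as a description.

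Other genes that make, modify or cut pectin were read from lists chosen by function. Of 125 such genes, 76 had a named probe set and 49 were tested. Within replicates 1 and 3, limma called 2 of them higher (1.29% of all probe sets) and 1 lower (3.24%), and the median of the 49 was 0.68, beside 0.22 for all 15909 probe sets. Of the 49, 3 passed the filter only through their cadmium arrays. Over all 6 arrays limma called 0 of 49 (0% of all probe sets). At an unadjusted p under 0.05 it gave 1 of 49 (0.528% of all probe sets). That gene, the polygalacturonase AT1G80170, is 1 of the 3 that passed the filter only through their cadmium arrays. The contrast of replicate 2 with the other pairs called 4 of the 49 higher (5.09% of all probe sets) and 11 lower (3.85%).

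Proteins that act on the methylesterases themselves had 1 call within replicates 1 and 3. Of 28 listed pectin methylesterase inhibitors 12 were tested, with a median of 0.58. Limma called 1 lower (3.24% of all probe sets) and 0 higher (1.29%). Differences were above 0 for 9 of the 12 (67.3%). At an unadjusted p under 0.05 limma gave 4 higher (15.3%) and 1 lower (9.07%). AT5G51520, 1 of the 4 higher, passed the filter only through its cadmium arrays, with a mean of 136 there and 60.1 on the control arrays. Replicate 2 was opposed to replicates 1 and 3 in 9 of the 12 (59.7%). AT3G47380 had 265 and 286 on cadmium arrays 1 and 3 and 806 and 1082 on control arrays 1 and 3, a difference of -1.76 ± 0.24 SE (limma adjusted p = 0.0310). In replicate 2 the same inhibitor gave 884 on the cadmium and 181 on the control array, and the contrast with the other pairs was 4.05 (limma adjusted p = 0.0161). AT3G47380 lies near the methylesterase AT3G47400, which had 3 of 3 pairs positive, with 1 protein-coding gene between them. The inhibitor AT1G23205 lies near AT1G23200, also with 1 protein-coding gene between. It had 477 and 348 on cadmium arrays 1 and 3 and 251 and 230 on control arrays 1 and 3 (limma adjusted p = 0.161). In replicate 2 AT1G23205 was opposed, with 135 on the cadmium and 394 on the control array.

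Of 4 subtilases linked to the processing of pectin methylesterases, all 4 were tested and 0 passed within replicates 1 and 3 in limma, where 2 higher (15.3% of all probe sets) and 2 lower (9.07%) had an unadjusted p under 0.05. The protease S1P, which cuts off the pro region in the Golgi, had 647 and 697 on cadmium arrays 1 and 3 and 306 and 403 on control arrays 1 and 3 (0.94 ± 0.24 SE, limma adjusted p = 0.101). SBT3.5, which processes PME17 in Arabidopsis roots, had 83.4, 141 and 350 on cadmium arrays 1, 3 and 2 and 196, 231 and 68.7 on control arrays 1, 3 and 2. The cadmium array of SBT3.5 lay below its control array in replicates 1 and 3 and above it in replicate 2, and the contrast between them was 3.32 (limma adjusted p = 0.0386). SBT3.3, a subtilase of immune priming, had the widest difference of the 4 and was at least 2.35-fold lower within replicates 1 and 3 (limma adjusted p = 0.0779 with signals under 62.1 set to that value). In replicate 2 SBT3.3 was opposed, with 192 on the cadmium and 35.6 on the control array.

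Among enzymes that modify or cut pectin, acetylesterases held the other calls. These enzymes remove acetyl groups, and 5 of 12 listed were tested. Within replicates 1 and 3, 2 of the 5 were higher (1.29% of all probe sets) and 0 lower (3.24%). AT1G57590 had 435 and 517 on cadmium arrays 1 and 3 and 71.4 and 90.8 on control arrays 1 and 3, a difference of 2.56 ± 0.28 SE (limma adjusted p = 0.0194). In replicate 2 it gave 61.9 on the cadmium and 77.9 on the control array. AT3G05910 had 968 and 830 on cadmium arrays 1 and 3 and 357 and 359 on control arrays 1 and 3 (1.32 ± 0.21 SE, limma adjusted p = 0.0395). In replicate 2 AT3G05910 was opposed, with 118 on the cadmium and 226 on the control array. After median centring 1 of the 5 acetylesterases was higher and 1 lower (110 and 681 of all probe sets). After quantile normalization 2 were higher and 1 lower (143 and 528 of all probe sets). The lower gene was AT3G09405, at -1.85 ± 0.37 SE within replicates 1 and 3 on the deposited scale (limma adjusted p = 0.061). In replicate 2 AT3G09405 was opposed, with 779 on the cadmium and 94.0 on the control array. The contrast of replicate 2 with the other pairs called 1 of the 5 higher (5.09% of all probe sets) and 3 lower (3.85%).

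Pectate lyases cleave demethylated pectin, and 13 of 26 listed were tested. All 13 had positive differences within replicates 1 and 3 (67.3% of all probe sets), between 0.18 and 1.68. Their median was 0.90, against 0.22 for all probe sets. After quantile normalization 12 were positive, with a median of 0.85 against 0.11 for all probe sets. After median centring 11 were positive, with a median of 0.64 against -0.03. The share of all probe sets above 0 was not counted after these rescalings. Within replicates 1 and 3 on the deposited scale limma called 0 of 13, and 6, all higher, had an unadjusted p under 0.05 (15.3% of all probe sets). AT4G13210 is among the 13 only through its cadmium arrays, with a mean of 110 there and 69.8 on the control arrays. The widest was AT1G04680, with 3214 and 2044 on cadmium arrays 1 and 3 and 1032 and 621 on control arrays 1 and 3 (1.68 ± 0.36 SE, adjusted p = 0.0693), and in replicate 2 it gave 178 on the cadmium and 648 on the control array. In the contrast of replicate 2 with the other pairs 4 of the 13 were lower (3.85% of all probe sets) and 0 higher (5.09%). Replicates 1 and 3 shared their sign while replicate 2 was opposed in 10 of the 13 (59.7% of all probe sets).

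Polygalacturonases, which cut the same backbone by hydrolysis, had 11 of 27 tested and 0 past the threshold in limma, with 4, all higher, at an unadjusted p under 0.05 (15.3% of all probe sets). The widest was AT1G80170, at 142 and 208 on cadmium arrays 1 and 3 and 18.8 and 27.3 on control arrays 1 and 3, at least 2.77-fold higher (limma adjusted p = 0.0750 with signals under 62.1 set to that value). AT1G80170 passed the filter only through its cadmium arrays, with a mean of 158 there and 60.8 on the control arrays. Of the genes that build pectin, 1 of 15 galacturonosyltransferases and 1 of 4 pectin methyltransferases were tested. GAUT15 had a difference of 0.79 ± 0.37 SE and AT3G49720 of 0.02 ± 0.24 SE (limma adjusted p = 0.265 and 0.959). Of 7 receptor kinases of the wall 2 were tested, and THE1 and FER had differences of -0.29 and -0.07 (limma adjusted p = 0.591 and 0.865). The 2 listed polygalacturonase inhibitors had no named probe set and are not analysed here.

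**Figure D4:**
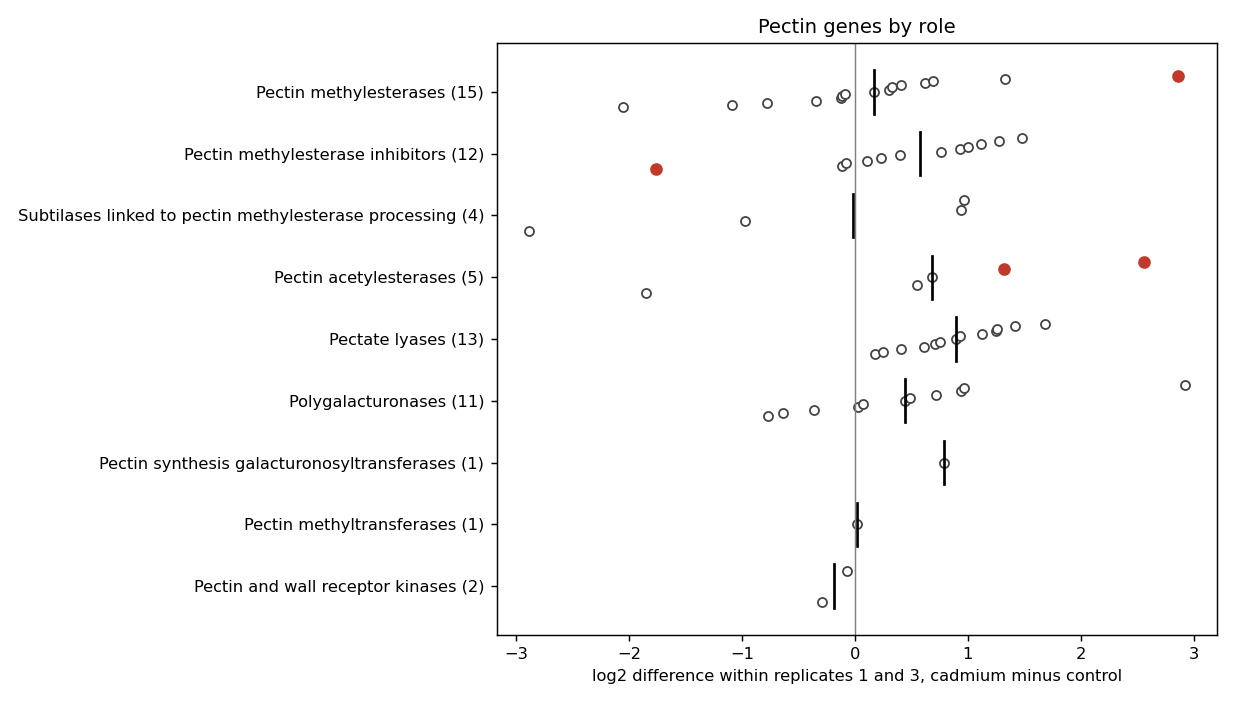
Log2 difference, cadmium minus control, within replicates 1 and 3 for each tested gene of 9 pectin lists, with the number tested in brackets, list medians as black bars and red points at an adjusted p under 0.05 in limma. The methylesterases spread on both sides of 0 around a median of 0.17, whereas the 13 pectate lyases lie between 0.18 and 1.68.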

How the data were processed

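Total RNA of roots was hybridised to ATH1 arrays, 3 labelled cadmium and 3 control. The deposited values are a linear intensity per probe set, made by the authors with MAS5 per the submitters' processing notes (version not given in the sources used here). Groups and replicate numbers came from the titles, and the sample descriptions number the same pairs differently. Signals were taken to log2, with 7 zeros of 1 array set to its lowest positive signal. The 64 control probe sets and those under the 30th percentile of mean signal (73.0) were left out, which left 15909. Limma 3.58.1 in R 4.3.3 (eBayes with an intensity trend, two-sided, Benjamini-Hochberg, threshold 0.05) was fitted within replicates 1 and 3, over all 6 arrays, and for the contrast of replicate 2 with the other pairs, which takes its spread from replicates 1 and 3. Each fit was first run on simulated arrays with known differences. Their noise was independent between arrays and replicate 2 had no scale of its own, so they are no check on these features of the data.

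The gene list, the split of the arrays and the tests were chosen with earlier results of these data known, so no p was adjusted over the list alone and no set test was made. Probe sets were named through the platform annotation and the TAIR10.1 RefSeq table (13513 with 1 gene, 503 with several, 8730 with none). Genes given with every array are those past a threshold, those whose 6 arrays do not overlap, and the 3 widest differences each way within replicates 1 and 3. AT3G49220, AT3G47400 and the other genes given by array were added after their values were seen. From each related list up to 3 called genes each way were named, or the gene with the widest difference. S1P, SBT3.5, AT1G23205 and FER were added for their function or position, and AT3G09405 for its call under other scalings. Where the dimmer group of a gene averaged under 62.1, lower signals were set to that value and its fold is given as "at least".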

Additional observations from a re-analysis of the deposited data

Results flagged for a closer look

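The cadmium minus control difference of AT5G04960 had the opposite sign in replicate 2, with a contrast against replicates 1 and 3 of -3.41 (limma adjusted p = 0.0355, and 0.0321 to 0.0497 under 6 other settings). This p takes the spread of replicate 2 from the other pairs, and the opposition was known when the contrast was chosen, so it is no independent evidence of an unlike response. Its log2 differences were 2.94, 2.78 and -0.55 in replicates 1, 3 and 2. The arrays of replicate 2 also differed in scale and in the GAPDH ratio, and the part of these in the contrast was not tested. No group had more than 3 arrays, so single arrays far from their group were not sought.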

How the results depend on the processing

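Within replicates 1 and 3, AT5G04960 was higher past the threshold under 9 of 11 alternatives (log2 2.54 to 3.18, adjusted p = 0.000338 to 0.0815), the exceptions being those without cadmium replicate 1 or 3. Among the 15 genes, the count higher was 0 to 2 and the count lower 0 to 1 when 1 array was left out. Over all probe sets these counts were 4 to 531 higher and 138 to 735 lower. A lone array of a group is assumed there to vary like the other group. With a replicate block within replicates 1 and 3, 2 of the 15 genes were higher and 2 lower (AT4G02330, AT2G47550 and AT5G53370 beside AT5G04960, with limma adjusted p = 0.00161, 0.00637 and 0.00464), and 2012 probe sets higher and 1509 lower. The labels name no shared batch, and same-numbered arrays deviated together over all 3 pairs with r = 0.11, -0.04 and 0.29 in replicates 1, 2 and 3, so the numbers were not taken to pair the samples. Within replicates 1 and 3 alone the differences of array 1 from array 3 correlated across probe sets with r = 0.53 between cadmium and control, and both arrays of replicate 2 shared their scale and GAPDH ratio, so some pairing may be present and the extra calls under the block are not set aside. Over all 6 arrays the block changed no call, with 0 of 15 genes past the threshold. The count of all probe sets higher within replicates 1 and 3, 205 as reported, was 110 after median centring, 121 with no filter and 84 without the intensity trend, and the count lower, 516 as reported, was 269 without the trend. With array weights over all 6 arrays, which were 0.12 and 0.20 for the cadmium and control arrays of replicate 2, 1 of the 15 genes was higher and 2 lower, and 701 and 859 probe sets. Leaving out 1 array there gave 0 to 1 probe set higher. In the contrast of replicate 2 with the other pairs, 809 probe sets were higher, 509 without the trend, and 612 lower, which was 984 after quantile normalization, 297 after median centring, 301 with no filter, 383 with the floor and 306 without the trend. The cause was not tested. Averaging several probe sets per gene was not run because each of the 24 genes had 1. The number of arrays, 2 or 3 a group, limits every interval, and 14 of 38 genes had no named probe set.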
